A study of Mus musculus with 4 samples.

Results

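The 10 genes described here, called members below, are the MAP kinase phosphatase genes Dusp1, Dusp2, Dusp4, Dusp5, Dusp6, Dusp8 and Dusp16, and the Sprouty-family genes Spry1, Spry2 and Spred1. They were taken by symbol from 22554 genes named once in each of 2 deposited tables, and all 10 were found. Messenger RNA was measured in 4 libraries of RAW264.7, a mouse macrophage cell line: 2 from cells cocultured with CT26, a mouse colon carcinoma line, and 2 from mock cells with no CT26 cells. No allele or other agent is named for either group, and the duration of the coculture and the way the macrophages were recovered from it are not stated in the sources used. Coculture 1 and mock 1 form pair 1 in the first table, and coculture 2 and mock 2 form pair 2 in the second.

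MAP kinases are switched on by phosphorylation and switched off by dual-specificity phosphatases, which remove phosphate from the threonine and tyrosine of the activation loop. Dusp1, Dusp2, Dusp4 and Dusp5 encode nuclear phosphatases that many stimuli induce, Dusp6 encodes a cytoplasmic phosphatase selective for ERK, and Dusp8 and Dusp16 encode phosphatases that act mainly on JNK and p38. Sprouty and Spred proteins act higher up, between receptor tyrosine kinases, RAS and RAF. Several of these genes are transcribed in response to the pathway they inhibit. In macrophages some of the phosphatases, among them that encoded by Dusp1, limit the cytokine response to microbial products.

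Levels are FPKM (fragments scaled to gene length and library size, as the authors deposited them). Each difference is the coculture value minus that of mock after the transform log2(FPKM + 1), which understates the change of low genes, and ± is limma's moderated standard error over 2 pairs. The limma p-values were adjusted over 10202 tested genes by the Benjamini-Hochberg method, with pairs as blocks and 0.05 as the threshold. Depth was estimated at 15950000 and 12050000 reads in coculture 1 and 2, and at 15050000 and 15500000 reads in mock 1 and 2. Macrophage markers were present throughout: 11 of 12 reached 1 FPKM in every library, and Mertk did not exceed 0.028 FPKM. Summed FPKM of these markers ranged from 10868 to 13846 in coculture and from 6990 to 10438 in mock, with Lyz2 the largest term at 6585 and 10287 FPKM in coculture 1 and 2, against 7088 and 3529 FPKM in mock 1 and 2. Of 11 macrophage markers tested, 0 were called in limma. In both pairs 3 were higher and 4 lower, against 21.5% and 42.2% of all tested genes. The part of these differences in the results below was not tested. Cd14, a co-receptor for lipopolysaccharide, stood at 1732 and 1149 FPKM in coculture 1 and 2, against 607 and 354 FPKM in mock 1 and 2 (1.60 ± 0.15, limma adjusted p = 0.062). Itgam, an integrin gene, differed by 0.46 ± 0.15 and the lysosomal gene Laptm5 by -0.66 ± 0.22. The macrophage receptor gene Csf1r stood at 472 and 397 FPKM in coculture 1 and 2, against 637 and 535 FPKM in mock 1 and 2 (-0.43 ± 0.13). Adgre1, which encodes F4/80, stood at 19.7 and 32.7 FPKM in coculture, against 18.3 and 32.1 FPKM in mock, and Cd68 stood at 671 and 549 FPKM in coculture, against 693 and 633 FPKM in mock. Of 16 tumour cell markers, only S100a6 reached 1 FPKM, at 586 and 793 FPKM in coculture and 614 and 752 FPKM in mock. The other 15 summed to at most 0.827 FPKM in coculture and 1.08 FPKM in mock, and Epcam and Krt18 were listed at 0 in all 4 libraries, while Krt8, Col1a1, Sparc and Cav1 did not exceed 0.282 FPKM in any. In bulk RNA, more cells expressing a gene and more RNA per cell cannot be told apart.

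Dusp5 and Dusp2 stood furthest apart between the groups, Dusp4, Dusp16, Dusp6 and Dusp1 were higher in coculture by smaller amounts, and Spry2 and Spred1 stood close to their mock values. Dusp8 and Spry1 were near or at 0. The filter of at least 1 FPKM in at least 2 libraries kept 8 members, and those 8 exceeded 1 FPKM in all 4 libraries, so none was tested on the strength of a single group. None of the 8 passed the threshold in limma, where 0.127% of all tested genes were called higher and 0% lower. With an unadjusted p under 0.05, 6 of the 8 were higher and 0 were lower, against 5.26% and 9.45% of tested genes. The same 6 were higher in both pairs, as were 21.5% of tested genes. The median difference of the 8 was 0.75, beside -0.07 for all genes tested. The members were chosen with earlier results of these data known, so these counts and the median describe the set and do not test it.

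**Figure D1:**
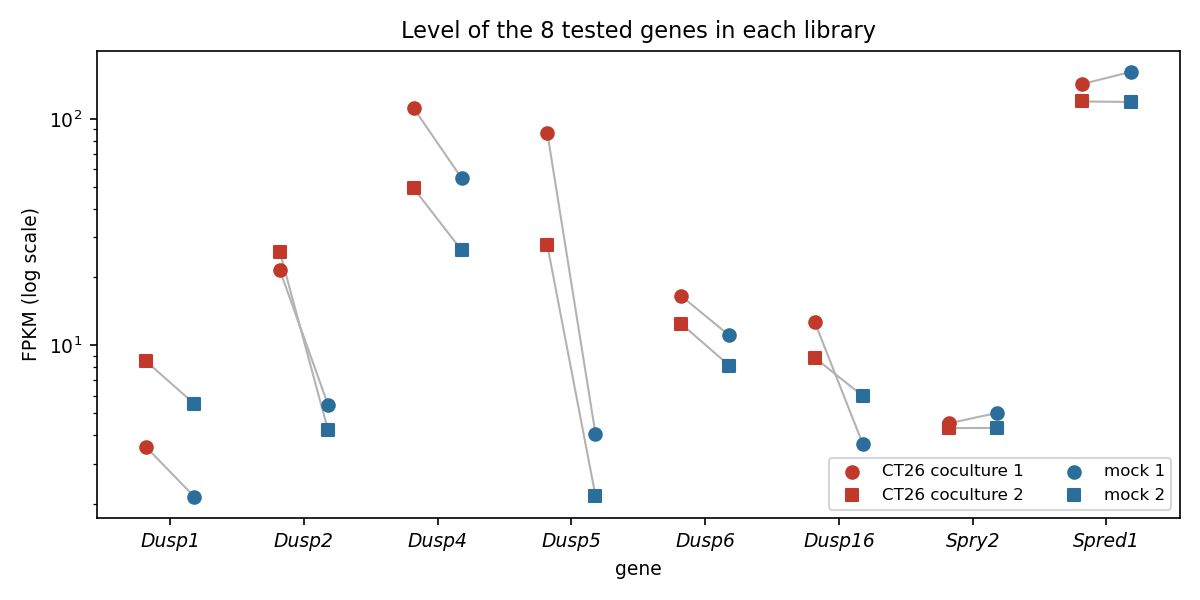
FPKM (log scale) of the 8 tested members in each library, with CT26 coculture in red left of mock in blue; circles are pair 1, squares are pair 2, and grey lines join the libraries of a pair. Dusp5 and Dusp2 show the steepest lines, at 27.7 to 86.6 and 21.5 to 25.9 FPKM in coculture against 2.17 to 4.06 and 4.23 to 5.47 FPKM in mock, while the Spry2 and Spred1 lines are nearly level.

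Among the nuclear phosphatases, Dusp5, which is selective for ERK and also holds it in the nucleus, had the largest difference. It stood at 86.6 FPKM in coculture 1 and 27.7 FPKM in coculture 2, and at 4.06 and 2.17 FPKM in mock 1 and 2. Both coculture libraries lay above both mock libraries, though this also compares libraries across the tables, which may have been normalized separately. The FPKM ratio was 21.3 in pair 1 and 12.8 in pair 2. On the log2 scale the difference was 3.65 ± 0.26, or 4.11 in pair 1 and 3.18 in pair 2. It ranked 10 of 10202 genes when ordered from the largest positive difference down, but its limma adjusted p was 0.054. It was under 0.05 in 5 alternatives, among them a pseudocount of 0.1 (limma adjusted p = 0.0282), and was 0.809 without the pair block.

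Dusp2, also called PAC-1, a phosphatase first known from activated haematopoietic cells, followed. It stood at 21.5 and 25.9 FPKM in coculture 1 and 2, against 5.47 and 4.23 FPKM in mock 1 and 2, and the groups did not overlap. Its FPKM ratios were 3.93 and 6.13, so here pair 2 showed the larger ratio, unlike Dusp5. The log2 difference was 2.08 ± 0.19, or 1.80 in pair 1 and 2.36 in pair 2 (limma adjusted p = 0.062). It was called after median centring (limma adjusted p = 0.0153) or quantile normalization (0.0482). Dusp5 and Dusp2 were the 2 members at least 2-fold higher in both pairs, as were 1.02% of tested genes.

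Dusp4, which encodes MKP-2, a phosphatase for ERK and JNK, was the most abundant phosphatase of the group in every library. It stood at 112 FPKM in coculture 1 and 49.4 FPKM in coculture 2, and at 54.6 and 26.3 FPKM in mock 1 and 2. Coculture 2 lay below mock 1, so the groups overlapped across the tables, which may have been normalized separately, while within each pair coculture was higher. The log2 difference was 0.95 ± 0.11, or 1.02 in pair 1 and 0.89 in pair 2 (limma adjusted p = 0.096). After median centring Dusp4 was called (limma adjusted p = 0.0442).

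Dusp1, which encodes MKP-1, the phosphatase best known for restraining p38 in activated macrophages, was the lowest of the nuclear phosphatases in coculture. It stood at 3.55 and 8.50 FPKM in coculture 1 and 2, against 2.15 and 5.52 FPKM in mock 1 and 2. Mock 2 lay above coculture 1, so the groups overlapped across tables. The FPKM ratio was 1.66 in pair 1 and 1.54 in pair 2. On the log2(FPKM + 1) scale its within-pair differences were nearly equal, 0.53 in pair 1 and 0.54 in pair 2, with a mean of 0.54 ± 0.17 (limma adjusted p = 0.289). Of all tested genes, 10.3% had groups that did not overlap with coculture higher, and 4 of the 8 tested members did: Dusp2, Dusp5, Dusp6 and Dusp16. Overlap or its absence also compares libraries across the tables, which may have been normalized separately, so only the within-pair differences avoid that limit.

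Upstream sequence differed among these genes. The 250 bases before the annotated start were available for 9 of the 10 members from RefSeq (build GRCm38.p6). Shown are those of Dusp5 and Dusp2, with the largest differences, of Dusp1, with a small one, and of Spred1, which stood close to mock. Capitals mark serum response elements (CArG boxes) and the core TGACG of the cyclic AMP response element (CRE), searched on both strands, together with the AP-1 site TGANTCA and the NF-kappaB consensus, which had no match in these 9 windows.
Dusp5 (chr19:53528895-53529144, plus strand): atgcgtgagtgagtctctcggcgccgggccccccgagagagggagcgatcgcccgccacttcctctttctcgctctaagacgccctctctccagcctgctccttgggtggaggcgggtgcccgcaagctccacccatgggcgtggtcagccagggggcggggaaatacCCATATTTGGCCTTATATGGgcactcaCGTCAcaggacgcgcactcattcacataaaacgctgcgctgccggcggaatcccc
Dusp2 (chr2:127335909-127336158, plus strand): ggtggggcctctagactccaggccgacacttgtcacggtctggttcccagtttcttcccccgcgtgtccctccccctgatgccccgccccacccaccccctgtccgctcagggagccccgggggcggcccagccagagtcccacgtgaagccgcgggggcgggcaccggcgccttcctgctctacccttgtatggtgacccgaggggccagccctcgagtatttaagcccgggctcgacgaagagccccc
Dusp1 (chr17:26508473-26508722, minus strand): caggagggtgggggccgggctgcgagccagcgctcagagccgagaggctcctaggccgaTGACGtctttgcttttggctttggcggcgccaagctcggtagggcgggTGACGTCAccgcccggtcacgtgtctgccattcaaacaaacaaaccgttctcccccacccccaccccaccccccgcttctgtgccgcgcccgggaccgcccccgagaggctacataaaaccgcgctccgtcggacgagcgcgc
Spred1 (chr2:117120821-117121070, plus strand): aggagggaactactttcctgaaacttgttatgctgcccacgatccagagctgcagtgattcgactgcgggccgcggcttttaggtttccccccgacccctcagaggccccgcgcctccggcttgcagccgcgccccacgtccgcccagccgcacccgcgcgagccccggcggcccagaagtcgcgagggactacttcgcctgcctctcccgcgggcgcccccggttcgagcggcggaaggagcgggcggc

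The Dusp5 window held 2 adjoining CArG boxes, which begin 82 and 72 bases before the start and form the long run of capitals. CArG boxes are bound by serum response factor, which with its ERK-activated partners drives immediate early genes. One CArG box or more was found in 1.47% of 32851 windows of this length, and 2 or more in 0.0183%, or 6 windows. None of the other 8 members' windows held one. The CRE core occurred 3 times in Dusp1, of which 2 lie on opposite strands of a full CRE (TGACGTCA) that begins 143 bases before the start, and once in Dusp5, where it is on the opposite strand. The core was found in 17.8% of windows and the full site in 1.55%, while the AP-1 site and the NF-kappaB consensus were found in 6.75% and 7.25%. Dusp2, Spred1, Dusp6, Spry1 and Spry2 held neither a CArG box nor a CRE core in this window. Dusp8, near 0 FPKM in these libraries, held 2 full CREs and Dusp16 held 1 core. The E-box, GC box, CCAAT box and TATA box were searched as well. Dusp2 held 1 E-box and 3 GC boxes, as did Dusp1, while Spred1 held 2 GC boxes and Dusp5 held 1. An E-box was found in 6.02% of windows and a GC box in 32.7%. All of these are matches of letters and not measured binding.

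Dusp6, the cytoplasmic ERK phosphatase and a widely used readout of ERK activity, stood at 16.5 and 12.5 FPKM in coculture 1 and 2, against 11.1 and 8.14 FPKM in mock 1 and 2. The groups did not overlap, though coculture 2 exceeded mock 1, which is in the other table, by little. The differences were 0.54 in pair 1 and 0.56 in pair 2, with a mean of 0.55 ± 0.14 (limma adjusted p = 0.235). Its FPKM ratios were 1.49 and 1.53. On the log2(FPKM + 1) scale Dusp6 and Dusp1 thus shared almost the same difference, far under that of Dusp5.

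Dusp16, which encodes MKP-7, a JNK phosphatase, was the least even member. It stood at 12.6 FPKM in coculture 1 and 8.80 FPKM in coculture 2, and at 3.65 and 5.97 FPKM in mock 1 and 2. Both coculture libraries lay above both mock libraries when compared across the tables, but the difference was 1.55 in pair 1 and 0.49 in pair 2. Its mean of 1.02 ± 0.29 exceeded that of Dusp4 with a wider error (limma adjusted p = 0.273). Dusp8, its close relative, known mainly from brain and heart, missed the filter. Its level was 0.115 and 0.068 FPKM in coculture and 0.054 and 0.013 FPKM in mock, which at the estimated depth comes to about 9 and 4 reads in coculture and 4 and 1 reads in mock. These counts are too low for a comparison.

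The Sprouty-family genes stood close to their mock values or near 0. Spred1, a membrane-anchored inhibitor that brings the RAS regulator neurofibromin to the membrane, was the most abundant member in all 4 libraries. It stood at 143 and 119 FPKM in coculture 1 and 2, against 161 and 119 FPKM in mock 1 and 2. The groups overlapped, and the difference was -0.17 in pair 1 and 0.01 in pair 2. The mean was -0.08 ± 0.12, with a 95% interval from -0.40 to 0.23 (limma adjusted p = 0.768).

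Spry2, an inhibitor induced by growth factors in many cells, stood at 4.52 and 4.31 FPKM in coculture 1 and 2, against 5.02 and 4.31 FPKM in mock 1 and 2. Its mean difference was -0.06 ± 0.17, with a 95% interval from -0.51 to 0.39 (limma adjusted p = 0.879). The interval takes in a modest change in either direction and does not reach the difference of Dusp2 or Dusp5. It rests on 2 pairs and mostly on the spread of other genes, so it cannot exclude a larger change. Its sign turned after median centring (0.0016) and quantile normalization (0.028). Spry1 was listed at 0.0495 FPKM in coculture 1, about 2 reads, and at 0 in coculture 2 and in both mock libraries.

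**Figure D2:**
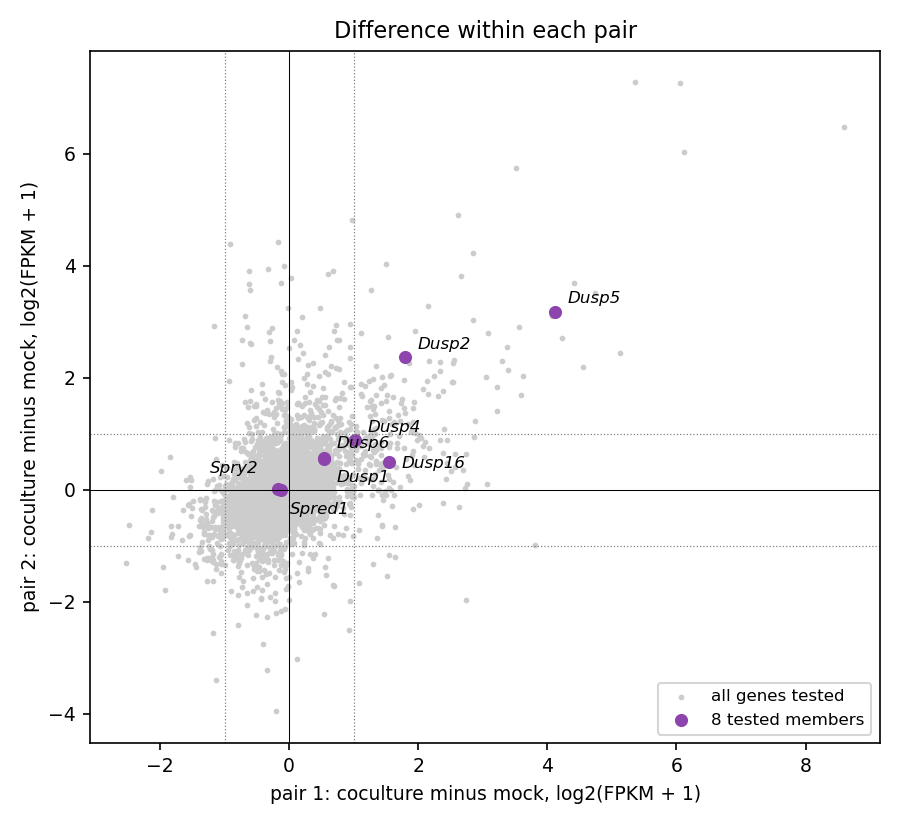
Difference between coculture and mock on the log2(FPKM + 1) scale in pair 1 (x axis) and pair 2 (y axis) for all genes tested (grey) and the 8 tested members (purple), with dotted lines at a 2-fold difference. Dusp5 lies at 4.11 and 3.18 and Dusp2 at 1.80 and 2.36, Dusp4 is just inside the 2-fold line in pair 2 at 0.89, and Spry2 and Spred1 lie by the origin.

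The order of the phosphatases differed between the groups. Summed over the 7 Dusp members, FPKM came to 253 in coculture 1 and 133 in coculture 2, against 81.1 in mock 1 and 52.3 in mock 2. Dusp5 supplied 34.3% and 20.9% of that sum in coculture 1 and 2, against 5.01% and 4.14% in mock 1 and 2. Among 24 genes with a Dusp symbol it ranked 2 and 3 in the coculture libraries and 10 and 15 in the mock libraries. Dusp2 supplied 8.52% and 19.5% in coculture 1 and 2, against 6.75% and 8.09% in mock 1 and 2.

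Dusp4 remained the largest term, but its share was 44.2% and 37.2% in coculture 1 and 2, against 67.4% and 50.2% in mock 1 and 2. The share of Dusp6 was 6.54% and 9.37% in coculture, against 13.6% and 15.6% in mock, although its own level was higher in coculture. The other 17 Dusp genes summed to 81.7 and 120.2 FPKM in coculture 1 and 2, against 96.6 and 139.6 FPKM in mock 1 and 2. Their sum was thus lower in both pairs, though not each gene. These shares were not tested.

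**Figure D3:**
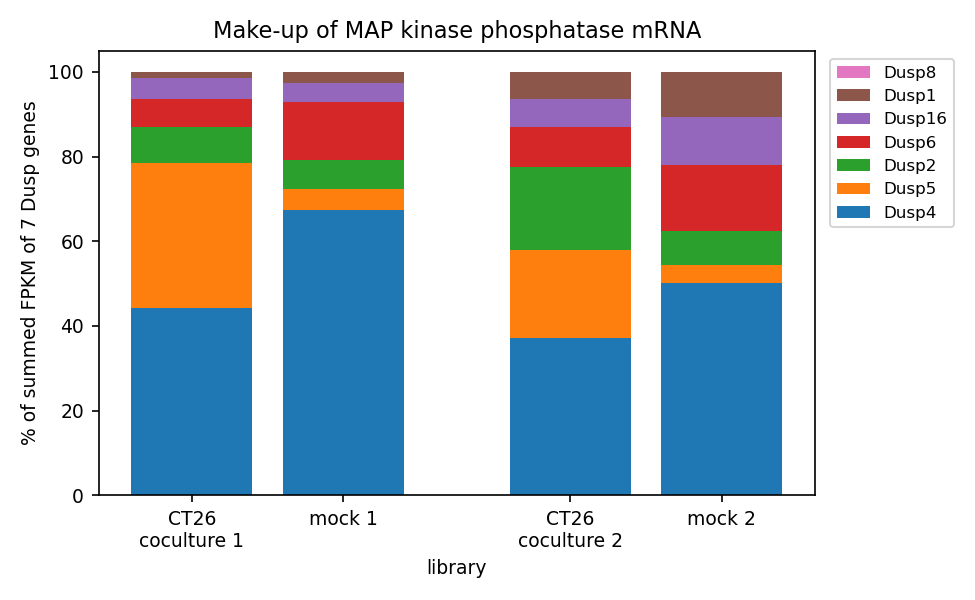
Share of each of 7 Dusp members in their summed FPKM (y axis, percent) in each library, with CT26 coculture left of mock within each pair. Dusp5 fills 34.3% and 20.9% of the coculture bars and 5.01% and 4.14% of the mock bars; Dusp8 is too low to see.

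The other genes of the pathway were read from lists of their kinases, adaptors, inhibitors and targets. Of 17 other dual-specificity phosphatases, 13 were tested, 0 were called in limma, 2 were higher in both pairs and 8 lower in both pairs, with a median difference of -0.10. This list includes Ssh genes and Styx, so it is not the same set as the 17 Dusp genes summed above. Dusp3, which encodes VHR, a small phosphatase that acts on ERK and JNK, stood at 23.3 and 44.1 FPKM in coculture 1 and 2, against 31.7 and 59.0 FPKM in mock 1 and 2 (-0.42 ± 0.11, limma adjusted p = 0.250). Dusp28 differed by -0.52 ± 0.19 and the cofilin phosphatase gene Ssh2 by -0.86 ± 0.24, while Dusp18 differed by 0.34 ± 0.18. Among all tested genes 42.2% were lower in both pairs.

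Of the other Sprouty and Spred genes, 2 of 4 were tested and 0 called. Spred2 stood at 21.9 and 34.6 FPKM in coculture 1 and 2, against 33.9 and 35.1 FPKM in mock 1 and 2 (-0.31 ± 0.18). Spred3 stood at 1.17 and 5.46 FPKM in coculture 1 and 2, against 0.739 and 0.922 FPKM in mock 1 and 2, a difference of 0.32 in pair 1 and 1.75 in pair 2.

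Of 18 other inhibitors of RAS and ERK signalling, 17 were tested and 0 called, and the median was -0.02. In both pairs 7 were higher and 7 lower, against 21.5% and 42.2% of all tested genes. Errfi1, which encodes MIG6, a feedback inhibitor of EGF receptors, stood at 52.6 and 27.0 FPKM in coculture 1 and 2, against 3.37 and 5.87 FPKM in mock 1 and 2 (2.82 ± 0.40, limma adjusted p = 0.123). The groups did not overlap when compared across the tables, and the difference was 3.62 in pair 1 and 2.03 in pair 2. Rasa3, a RAS GTPase-activating protein gene, stood at 10.5 and 29.0 FPKM in coculture 1 and 2, against 25.2 and 52.8 FPKM in mock 1 and 2 (-1.02 ± 0.14, limma adjusted p = 0.123). The adaptor gene Dok2 differed by 0.77 ± 0.14, and Rasa4, another RAS GTPase-activating protein gene, by -0.58 ± 0.15.

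RAS and RAF genes, with adaptors that act on RAS, had 15 of 17 tested, 0 called and a median of 0.04. Braf differed by 0.43 ± 0.15 and Rras by 0.52 ± 0.24. MAP kinase kinase kinases, listed with their partner proteins Tab1, Tab2 and Tnip2, had 13 of 13 tested, 0 called and a median of -0.10, with Map3k1 at -0.66 ± 0.15, Map3k5 at -0.51 ± 0.17 and Map3k4 at -0.44 ± 0.20. Tab1, an adaptor of the kinase TAK1, differed by -0.44 ± 0.14.

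MAP kinase kinases had 6 of 7 tested, 0 called and a median of 0.06. Map2k1, which encodes the ERK activator MEK1, stood at 81.5 and 78.3 FPKM in coculture 1 and 2, against 69.7 and 60.4 FPKM in mock 1 and 2 (0.30 ± 0.11). Map2k3, an activator of p38, differed by 0.24 ± 0.11, Map2k5 by -0.18 ± 0.14 and Map2k2 by 0.05 ± 0.11. MAP kinases had 8 of 10 tested, 0 called and a median of -0.07: the p38 genes Mapk14 and Mapk11 differed by -0.38 ± 0.11 and 0.66 ± 0.26, Mapk6 by 0.38 ± 0.12 and the JNK gene Mapk8 by 0.16 ± 0.14. Kinases downstream of MAP kinases had 7 of 10 tested, 0 called and a median of -0.15, with Rps6ka5 at -0.55 ± 0.22, Mknk2 at -0.49 ± 0.14, Mknk1 at -0.15 ± 0.13 and Rps6ka3 at -0.07 ± 0.12.

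The list of immediate early targets of ERK had a median of 0.71 over 16 of 18 genes. Among the lists of 3 or more tested genes, this was the median closest to that of the members. The list was drawn broadly and also holds the transcription factor genes Elk1 and Srf and the cyclin gene Ccnd1. The members and lists were chosen with earlier results of these data known, and ERK activity was not measured. What drove these genes was not tested. In limma 1 was called higher and 0 lower, 10 were higher in both pairs and 1 was lower in both. The shares over all tested genes were 0.127%, 0%, 21.5% and 42.2%. Ier3, an early response gene, rose by 4.05 ± 0.21 (limma adjusted p = 0.0297). The call was lost without the pair block, with no filter, without trended variance and without any single library. Myc, the growth regulator, differed by 3.53 ± 0.35, Phlda1 by 3.47 ± 0.40 and Plaur, the urokinase receptor gene, by 2.07 ± 0.18 (limma adjusted p = 0.071, 0.091 and 0.062).

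Other ERK targets, chosen after their values were seen, did not share that size. Fos stood at 24.2 and 30.8 FPKM in coculture 1 and 2, against 34.3 and 26.1 FPKM in mock 1 and 2, a difference of -0.48 in pair 1 and 0.23 in pair 2. Egr1 stood at 8.75 and 8.62 FPKM in coculture 1 and 2, against 1.31 and 4.58 FPKM in mock 1 and 2 (1.43 ± 0.35, limma adjusted p = 0.230). Etv5 differed by -0.93 in pair 1 and 0.02 in pair 2. Fosl1 differed by 1.39 ± 0.26, or 0.94 in pair 1 and 1.83 in pair 2 (limma adjusted p = 0.174). Of the 16 tested genes of the list, 10 were higher in both pairs, 1 was lower in both and 5 went opposite ways.

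**Figure D4:**
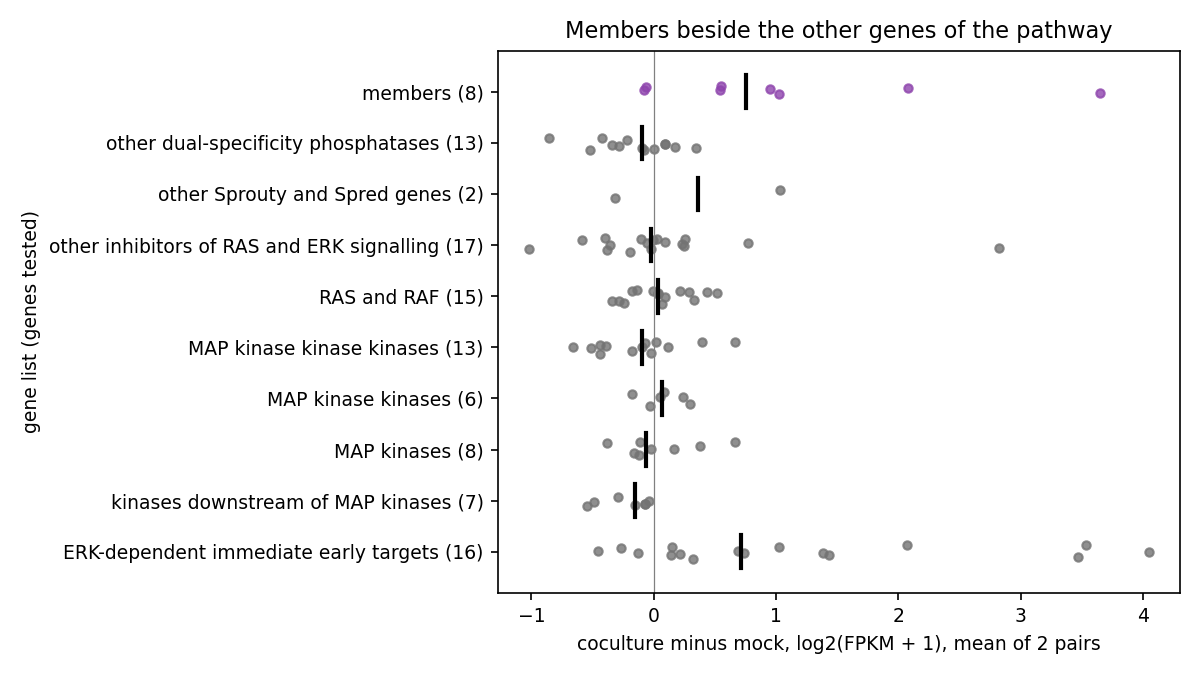
Difference between coculture and mock on the log2(FPKM + 1) scale (x axis, mean of 2 pairs) for each tested gene of the 8 members and of 9 other lists of the MAP kinase pathway; black bars are list medians. The members and the immediate early targets have medians of 0.75 and 0.71, while the medians of the kinase lists lie between -0.15 and 0.06.

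The genes whose pattern lay nearest to a member were sought for the 2 members at least 2-fold higher in both pairs, by the Euclidean distance between their 2 within-pair differences among tested genes averaging 2 FPKM or more. Nearest to Dusp5 were Tnf (distance 0.097), Phlda1 (0.488) and Ier3 (0.583). Tnf, the tumour necrosis factor gene, differed by 4.07 in pair 1 and 3.09 in pair 2. Nearest to Dusp2 were Slc7a11, a cystine transporter gene (0.107), Pou2f2, a transcription factor gene (0.374), and Abca1, a cholesterol exporter gene (0.386). The likeness rests on 2 differences from 4 libraries.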

How the data were processed

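RAW264.7 libraries from 2 CT26 cocultures and 2 mock cultures were analysed, grouped by their titles. The authors deposited FPKM in 2 tables, 1 pair each. Trim Galore, Subread and featureCounts, and the human build hg38, are named per the submitters' processing notes, although the symbols are mouse symbols; versions, annotation, gene lengths and normalization are not stated in the sources used here. Strand use is not stated, so overlapping genes cannot be told apart.

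Unnamed rows (23) and repeated names (106, on 287 rows) of the first table were left out, and 22554 genes named once in both tables were joined. Genes reaching 1 FPKM in 2 or more libraries (10202) entered limma 3.58.1 (R 4.3.3) on log2(FPKM + 1), with trended eBayes, two-sided, and each pair as a block, since normalization may differ between the tables. Pairing comes from the tables; deviations of paired libraries from group means correlated at 0.76 across genes. Residual degrees of freedom were 1, with 3.43 more from the prior. Whether replicates are separate cultures is not stated, so p-values measure spread that may be technical.

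Depth was estimated as the read number that brought the largest share of low values close to whole reads, using GENCODE M21 exon lengths. At that number 47.5% to 51.5% of low values came within 0.1 of a whole number. Counts of reads are therefore approximate.

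The members and lists were chosen with earlier results of these data known. Genes named are the members, up to 4 tested genes per list whose difference was largest among those with 1 sign in both pairs, 9 cell markers set by name, and 3 nearest genes to each member 2-fold higher in both pairs; some genes under this rule are not reported here. Lyz2, Mertk, S100a6, Map3k8 and the further ERK targets and opposite-signed genes were named after their values were seen. Alternatives were pseudocounts, filters, no block, 3 scalings, no trend and leaving out each library. The fit was tested on simulated data.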

Additional observations from a re-analysis of the deposited data

How the results depend on the processing

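Across 13 alternatives the differences of Dusp1, Dusp2, Dusp4, Dusp5, Dusp6 and Dusp16 stayed above 0. Dusp5 passed limma's threshold with a pseudocount of 0.1 (3.9997), the filter at 5 FPKM (3.65), rescaling to a common total (3.60), median centring (3.71) and quantile normalization (3.66); Dusp2 passed with median centring (2.15) and quantile normalization (2.15), and Dusp4 with median centring (1.02). Members called were thus 1 with a pseudocount of 0.1, at least 5 FPKM or rescaling, 3 with median centring and 2 with quantile normalization. Without the replicate block 0 members and 1 gene in all were called, with 0 genes lower. Spry2 turned to 0.0016 with median centring and 0.028 with quantile normalization, and could not be fitted with at least 5 FPKM.

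Leaving out 1 library (unblocked, so across tables, with the lone library assumed to vary like the other group) gave 0 calls over all genes, with 176 to 523 at an unadjusted p under 0.05. Differences then ranged from 0.0081 to 1.07 for Dusp1, 1.93 to 2.23 for Dusp2, 0.37 to 1.53 for Dusp4, 2.84 to 4.45 for Dusp5, 0.35 to 0.75 for Dusp6, 0.73 to 1.31 for Dusp16, -0.30 to 0.14 for Spred1 and -0.15 to 0.026 for Spry2. Spred1 lay above 0 without mock 1 (0.14) or without coculture 2 (0.044), and Spry2 without mock 1. Immediate early targets called were 0 to 0.

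Genes called higher over all genes were 13, against 22 with a pseudocount of 0.1, 25 with at least 5 FPKM, 25 with rescaling, 85 with median centring, 43 with quantile normalization, 1 without trend and 0 with no filter (1514 at an unadjusted p under 0.05). Genes called lower were 0, against 1 with at least 5 FPKM, 1 with rescaling, 18 with median centring and 3 with quantile normalization. Immediate early targets called were 1, against 4 with median centring, 2 with quantile normalization and 0 with no filter, without the block or without trend; of the other inhibitors, 1 was called with median centring against 0. Genes 2-fold higher in both pairs were 104, against 245 at a 1.5-fold bound, and those lower 36, against 221 at that bound and 75 with a pseudocount of 0.1. The causes were not tested. With 2 pairs and 1 residual degree of freedom, limma's spread rests mostly on the other genes.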

Other observations

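Some genes of the pathway went opposite ways in the pairs; they were chosen after their values were seen and no test of the difference between pairs was run. Dusp14, which encodes a small phosphatase, stood at 0.683 FPKM in coculture 1 and 6.57 FPKM in coculture 2, and at 1.62 and 3.87 FPKM in mock 1 and 2, a difference of -0.64 in pair 1 and 0.64 in pair 2. Egr3, an early growth response gene, stood at 9.97 and 0.613 FPKM in coculture 1 and 2, against 2.53 and 2.71 FPKM in mock 1 and 2. Map3k8, which encodes the ERK-activating kinase TPL2, stood at 2.61 and 9.26 FPKM in coculture 1 and 2, against 2.88 and 2.78 FPKM in mock 1 and 2.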
